A study of Drosophila melanogaster with 34 samples.

Results

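The 9 genes described here are the Myc transcription factor network (Myc, Max and Mnt) and 6 nucleolar genes (Fib, Nop56, Nop60B, Nopp140, pit and Non1), out of 17641 gene symbols measured. They were taken by symbol, and the set was put together with measured levels in view: it holds Non1 because its level was higher in older tumors while most of the others were lower. The levels of these genes across tumor ages are therefore given below as a description, with no test.

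Bulk RNA-seq was made from wing imaginal discs of Drosophila larvae raised at 25 degrees in uncrowded vials. Control discs carried FRT82B alone (stock BL2035) and were taken at 4 days AEL (after egg laying, n = 3) and at 5 days (n = 4). Tumors were discs of scrib-/- FRT82B larvae from the scrib1 FRT82B/TM6B stock, which are mutant for the apical-basal polarity gene scrib in the whole animal, and were taken at 4, 5, 8, 10, 12 and 14 days (n = 4 each) and at 6 days (n = 3). All 34 libraries thus share the FRT82B site, no control exists after 5 days, and the number of animals in a library is not given in the sources used here. The study calls the replicates biological, and whether they came from separate vials is not given in the sources used here, so p-values measure the spread between these libraries.

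Myc is a basic helix-loop-helix factor that drives cell growth in imaginal discs, in large part through genes for ribosome production. It binds DNA as a dimer with Max, and Mnt, which also pairs with Max, represses genes that Myc activates. The nucleolus is where RNA polymerase I transcribes ribosomal RNA, where small nucleolar ribonucleoproteins (snoRNPs) modify it, and where helicases and GTPases help to assemble the ribosomal subunits. In the wing disc, differences in Myc level between neighbouring cells are known to decide which cells survive in cell competition.

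The libraries held 18437402 to 26619424 reads on genes (median 20397820) and 10571 to 11361 detected genes. Levels are given in CPM, read counts brought to a common library size with the authors' scaling, and 3 reads, the smallest value taken as measurable, were worth 0.116 to 0.166 CPM. Each of the 9 genes was above this in every library and passed the filter on low values. The level of scrib transcript was 453 ± 57.2 CPM (SD, n = 3) in controls and 571 ± 45.2 CPM (n = 4) in tumors at 4 days, so the transcript does not check the labels of this allele. All 15 markers of the wing disc epithelium were detected in every library, with a summed level of 4552 to 4744 CPM in controls and 2155 to 2397 CPM in tumors at 5 days. Digestive enzyme markers of the gut summed to 2753 CPM in 1 control library of 4 days (replicate 2) and to 591 CPM in 1 tumor library of 10 days (replicate 1), far above the other libraries of their groups.

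The genes lie on 3 chromosomes of the BDGP6 assembly. Myc (FBgn0262656) is at X:3373159-3391697 on the plus strand and Mnt (FBgn0023215) at X:3671801-3701672 on the plus strand. Max (FBgn0017578) is at 3L:19262232-19264184 on the minus strand and Nopp140 (FBgn0037137) at 3L:21832774-21836685 on the plus strand. Nop56 (FBgn0038964) is at 3R:22419095-22421068 on the minus strand and pit (FBgn0266581) at 3R:22034298-22038925 on the plus strand. Fib (FBgn0003062) is at 2R:23072909-23074725 on the minus strand, Nop60B (FBgn0259937) at 2R:24174877-24186343 on the plus strand and Non1 (FBgn0028473) at 2R:9396265-9398734 on the minus strand. Exons of other genes cover 61.2% of the annotated exon bases of Myc, 30.1% of those of Max, 15.3% of those of Nop60B, 0.65% of those of Nopp140 and none of the other 5 genes. The counting, at default settings, did not use strand and leaves out reads that overlap exons of more than 1 gene. Reads in shared exons may therefore be missing from the counts of both genes. The partners CG12535 and CR44999 of Myc were listed at no more than 0.456 CPM in any library, and Bet1, on the opposite strand from Max, at 8.87 to 26.2 CPM. Such values can follow from the counting and do not show how much the partners were expressed.

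Myc, the activator of the network, was higher in tumors than in controls at both ages that have controls. The control libraries held 90.6, 93.1 and 96.1 CPM at 4 days and 96.1, 100, 106 and 104 CPM at 5 days. The tumor libraries held 197, 182, 198 and 184 CPM at 4 days and 220, 216, 190 and 221 CPM at 5 days. The groups did not overlap at either age. The mean was 2.04-fold higher in tumors at 4 days and 2.09-fold higher at 5 days. On the log2(CPM + 1) scale the differences were 1.02 (SE 0.082) and 1.05 (SE 0.076), with adjusted p of 5.25e-12 and 2.72e-13 (limma, Benjamini-Hochberg over all genes). The difference between the 2 effects was 0.03, with a 95% interval from -0.20 to 0.26, and did not pass the test (adjusted p = 0.867). In control discs Myc was 0.12 higher at 5 than at 4 days, with an interval from -0.05 to 0.29 (adjusted p = 0.226).

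In older tumors Myc stayed between 178 and 243 CPM. The group means in order of age were 190, 212, 210, 208, 186, 210 and 225 CPM. Each of the 27 tumor libraries was above each of the 7 control libraries. The libraries of 4 and 14 days overlapped, and the slope on age was 0.010 log2 units per day.

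**Figure D1:**
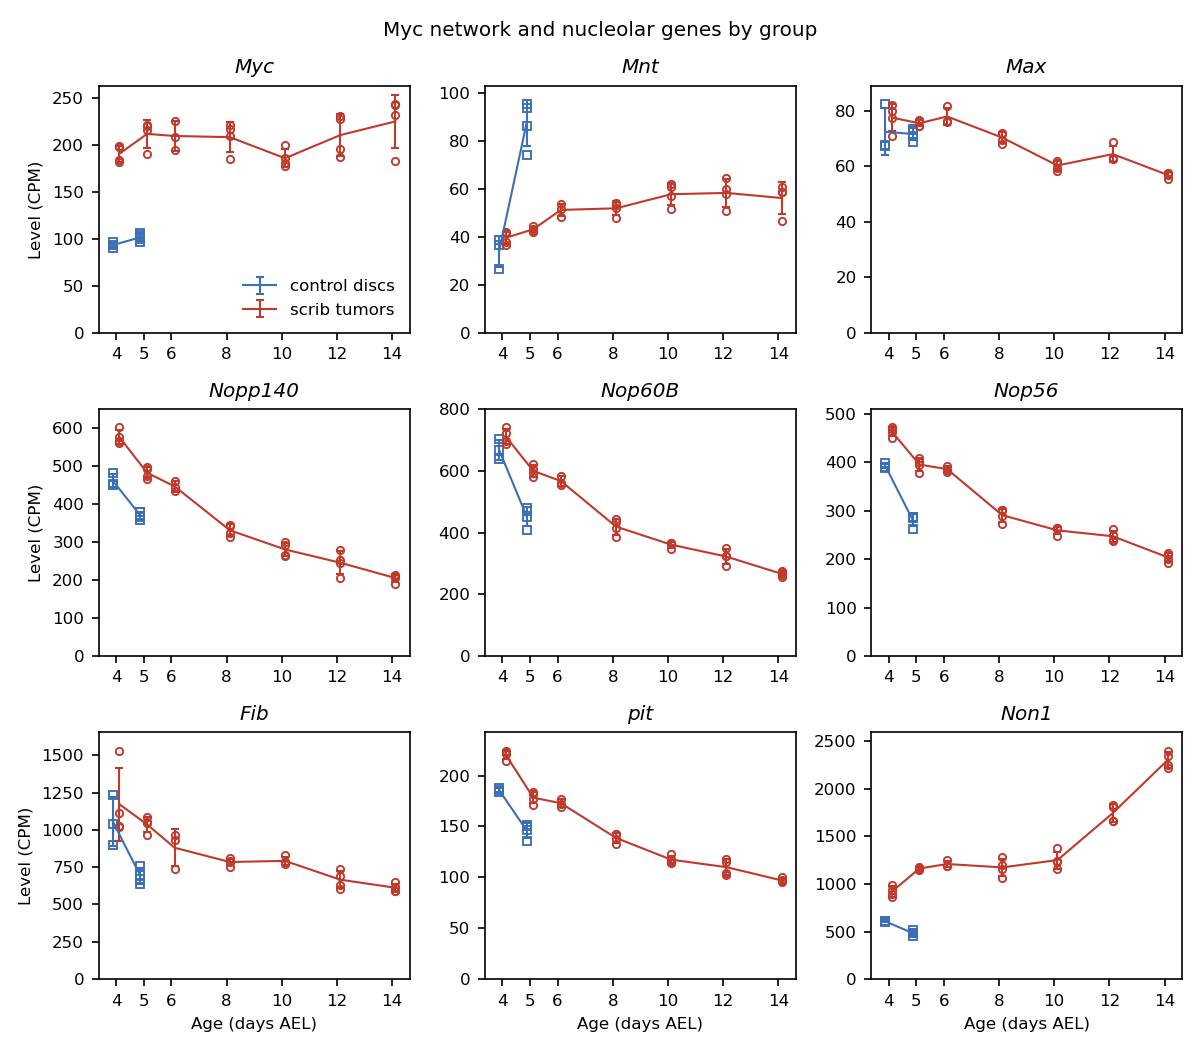
Level in CPM of each of the 9 genes against age in days AEL, with 1 open symbol per library and lines through group means with SD bars. Controls are blue squares and tumors red circles. Myc and Non1 of the tumors lie above the controls at every age, 5 nucleolar genes descend with tumor age, and Mnt of the controls climbs between 4 and 5 days.

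Mnt, the repressor that competes for Max, showed the widest change among these genes in control discs. The libraries held 36.5, 38.5 and 26.5 CPM at 4 days and 86.4, 74.1, 93.9 and 95.3 CPM at 5 days. Every library of 5 days was above every library of 4 days, by 2.58-fold in the mean. The difference of 1.35 log2 units (SE 0.10) passed the test with an adjusted p of 3.3e-12. This comparison uses control libraries alone, but the genes were chosen with earlier results of these data known.

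In tumors Mnt did not reach the level of the older controls. The tumor libraries held 41.4, 36.8, 37.9 and 42.1 CPM at 4 days and 44.5, 42.2, 43.4 and 42.5 CPM at 5 days. At 5 days all tumor libraries were below all control libraries, and the difference was -0.996 (SE 0.095, adjusted p = 1.33e-10). At 4 days the groups overlapped. The difference of 0.23 (SE 0.10) passed narrowly with an adjusted p of 0.0485. Without control replicate 3 the difference was only 0.073 log2 units, and the call was lost. It was also lost without any of tumor replicates 1, 3 and 4, and under 6 other settings. The tumor effect differed between the ages by -1.23 (SE 0.14, adjusted p = 2.99e-08). From 6 days on the tumor means in order of age were 51.2, 51.9, 57.8, 58.3 and 56.2 CPM, and every tumor library stayed below the lowest control library of 5 days.

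Max, the partner that both factors need, differed little between the groups with controls. It was at 67.6, 67.4 and 82.3 CPM in controls of 4 days and at 73.6, 68.7, 71.0 and 73.1 CPM in controls of 5 days. In tumors it was at 82.2, 80.01, 77.3 and 70.8 CPM at 4 days and at 76.7, 74.4, 74.7 and 76.1 CPM at 5 days. The tumor and control libraries overlapped at 4 days, while at 5 days all tumor libraries were above all controls by a small margin. Neither difference passed the test: it was 0.10 with an interval from -0.0077 to 0.21 at 4 days (adjusted p = 0.101) and 0.076 with an interval from -0.025 to 0.18 at 5 days (adjusted p = 0.169). Both directions turned when libraries were scaled by size alone, to -0.016 and -0.010, and at 4 days the difference was 0.20 without control replicate 3 and passed the test. In older tumors Max was lower, with 58.4 to 62.0 CPM at 10 days and 55.6 to 57.7 CPM at 14 days, both below every control library. At 12 days it was at 62.4 to 68.9 CPM and overlapped the controls.

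The balance of the activator and the repressor can be read within a library as the ratio of Myc to Mnt in CPM. The ratio was 2.48, 2.42 and 3.63 in controls of 4 days and 1.09 to 1.35 in controls of 5 days. In tumors it was 4.38 to 5.23 at 4 days and 4.38 to 5.20 at 5 days. Older tumors held lower ratios, with the lowest at 10 days (3.00 to 3.51) and 3.94 to 4.15 at 14 days. Every tumor library was above every control of 5 days, and the tumors of 8, 10 and 12 days overlapped the controls of 4 days.

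**Figure D2:**
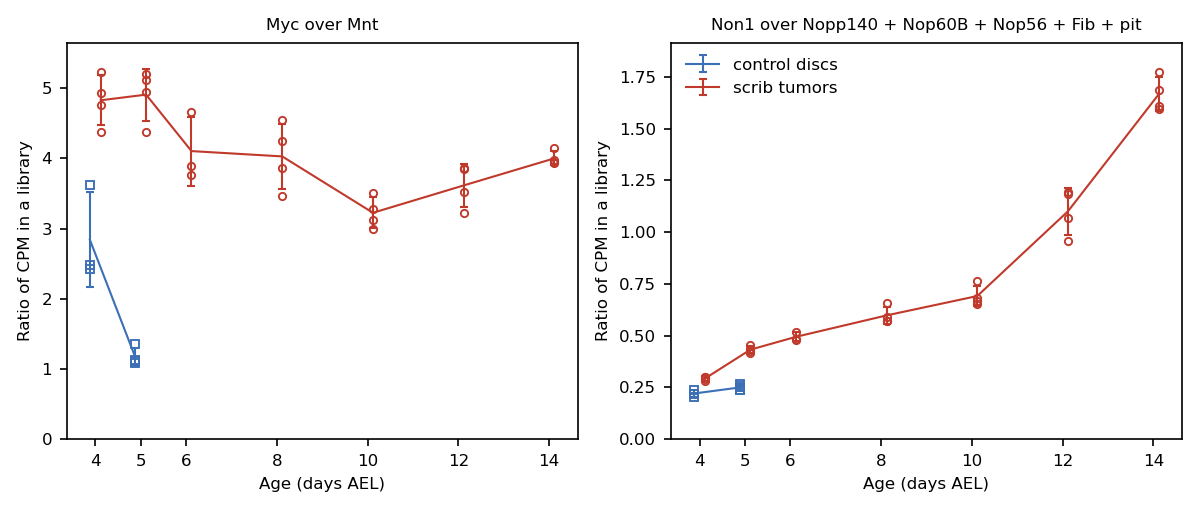
Ratio of Myc to Mnt (left) and of Non1 to the sum of Nopp140, Nop60B, Nop56, Fib and pit (right), both from CPM within a library, against age in days AEL, with 1 symbol per library and lines through group means with SD bars. The ratio of Myc to Mnt is 1.17 in controls and 4.91 in tumors at 5 days, and the Non1 ratio of the tumors goes from 0.293 at 4 days to 1.67 at 14 days.

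The snoRNP genes were lower in control discs at 5 than at 4 days, and were higher in tumors than in controls at 5 days. Fib encodes fibrillarin, the methyltransferase of box C/D snoRNPs. It was at 1231, 1040 and 899 CPM in controls of 4 days and at 670, 700, 636 and 760 CPM in controls of 5 days, with no overlap. The tumor libraries held 1024, 1020, 1111 and 1531 CPM at 4 days and 1056, 1084, 1043 and 963 CPM at 5 days. The tumors overlapped the controls at 4 days and were all above them at 5 days. The control difference was -0.60 (SE 0.11, adjusted p = 2.11e-05) and the tumor difference at 5 days 0.58 (SE 0.099, adjusted p = 5.89e-06), both past the test. At 4 days the tumor difference was 0.14 with an interval from -0.079 to 0.36 (adjusted p = 0.265), and it did not rest evenly on the libraries. It was 0.0042 without tumor replicate 4, the library at 1531 CPM, 0.029 without control replicate 3 and 0.26 without control replicate 1 (adjusted p = 0.0598).

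Nop56, a core protein of the same snoRNPs, was at 389 to 399 CPM in controls of 4 days and at 287, 286, 261 and 288 CPM in controls of 5 days. In tumors it was at 451 to 472 CPM at 4 days and at 378 to 410 CPM at 5 days. The groups did not overlap in any of these comparisons. Tumors were higher by 0.24 at 4 days (SE 0.042, adjusted p = 1.59e-05) and by 0.49 at 5 days (SE 0.039, adjusted p = 1.91e-12), and controls fell by 0.49 from 4 to 5 days (SE 0.042, adjusted p = 5.7e-11). With libraries scaled by size alone the tumor difference at 4 days was 0.12 and still passed the test.

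Nop60B, the pseudouridine synthase of box H/ACA snoRNPs, was at 637 to 702 CPM in controls and 688 to 741 CPM in tumors at 4 days, and the groups overlapped. The difference of 0.091, with an interval from -0.020 to 0.20, did not pass the test (adjusted p = 0.149), and it turned to -0.027 when libraries were scaled by size alone. At 5 days the controls held 410 to 480 CPM and the tumors 579 to 621 CPM, a difference of 0.41 (SE 0.050, adjusted p = 2.65e-08). The control difference from 4 to 5 days was -0.56 (SE 0.054, adjusted p = 5.56e-10).

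Nopp140, a snoRNP chaperone of the nucleolus and Cajal body, was at 450 to 481 CPM in controls and 560 to 601 CPM in tumors at 4 days. At 5 days it was at 358 to 378 CPM in controls and 467 to 496 CPM in tumors. The tumors were above the controls in every library at both ages, by 0.32 (SE 0.063, adjusted p = 7.16e-05) and by 0.38 (SE 0.059, adjusted p = 1.22e-06). The gene pit, for the DEAD-box helicase Pitchoune, whose transcript level is known to depend on Myc in flies, followed the same order. It was at 184 to 188 CPM in controls and 214 to 224 CPM in tumors at 4 days, and at 136 to 151 CPM and 171 to 184 CPM at 5 days. Its tumor differences were 0.25 (SE 0.043, adjusted p = 1.45e-05) and 0.29 (SE 0.040, adjusted p = 2.84e-07). With libraries scaled by size alone the differences at 4 days were 0.20 for Nopp140 and 0.13 for pit, both still past the test. In control discs both genes fell from 4 to 5 days, Nopp140 by 0.32 (SE 0.063, adjusted p = 9.33e-05) and pit by 0.35 (SE 0.043, adjusted p = 8.32e-08).

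With tumor age these 5 nucleolar genes were lower. Nopp140 had a mean of 576 ± 18.1 CPM (SD, n = 4) in the tumors of 4 days and of 205 ± 10.2 CPM in those of 14 days, which is 2.81-fold lower. Nop60B went from 712 ± 24.0 to 266 ± 8.76 CPM, 2.68-fold lower. Nop56 went from 464 ± 9.47 to 204 ± 9.52 CPM and pit from 221 ± 4.47 to 97.0 ± 2.22 CPM, 2.27-fold and 2.28-fold lower. Fib, the least changed of them, went from 1172 ± 243 to 612 ± 28.1 CPM, 1.91-fold lower. For all 5 genes and for Max the 4 libraries of 14 days were below the 4 libraries of 4 days, for Mnt and Non1 they were above, and for Myc they overlapped. How many of all genes separate in this way between 4 and 14 days was not counted. By another measure, the test of the slope on age, 40.8% of all 9408 genes tested over the tumors fell and 36.4% rose.

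The decline was not even in time. Per day, the group means of log2(CPM + 1) differed most between 4 and 5 days, by -0.26 for Nopp140, -0.25 for Nop60B, -0.23 for Nop56 and -0.31 for pit. Between 5 and 6 days these differences were -0.11, -0.081, -0.034 and -0.045, and between 6 and 8 days -0.22, -0.22, -0.20 and -0.16 per day. Fib went otherwise, with the largest difference between 5 and 6 days, at -0.24, against -0.16 between 4 and 5 days. Its mean was nearly level between 8 and 10 days (785 and 792 CPM). The slopes on age over the 27 tumor libraries were -0.15 log2 units per day for Nopp140, -0.14 for Nop60B, -0.11 for Nop56 and for pit, -0.085 for Fib and -0.045 for Max. Mnt had a slope of 0.049 and Non1 of 0.11.

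Tumors passed below the controls of 5 days at different ages. Against those controls, all libraries of Nopp140 were above at 6 days and below at 8 days. Nop60B and pit overlapped them at 8 days and were below at 10 days. Nop56 overlapped them at 8, 10 and 12 days and was below at 14 days (192 to 213 CPM), while Fib still overlapped them at 14 days (591 to 651 CPM). These ages differ from that of the controls, so genotype and age cannot be told apart in them.

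Non1 encodes a nucleolar GTPase, the fly counterpart of yeast Nog1, which takes part in assembling the large ribosomal subunit. It was at 615, 597 and 609 CPM in controls of 4 days and at 451, 512, 483 and 485 CPM in controls of 5 days. The tumor libraries held 897, 858, 934 and 988 CPM at 4 days and 1144, 1178, 1157 and 1171 CPM at 5 days. No 2 of these 4 groups overlapped. In controls it fell by 0.33 from 4 to 5 days (SE 0.057, adjusted p = 1.45e-05), as the other 5 nucleolar genes did. The tumor difference was 0.60 at 4 days (SE 0.057, adjusted p = 2.57e-10) and 1.27 at 5 days (SE 0.053, adjusted p = 3.98e-19), and the second exceeded the first by 0.67 (SE 0.078, adjusted p = 4.68e-08). Of this, 0.34 was the step of the tumors from 4 to 5 days, whose libraries the choice of Non1 also drew on, so the test is not independent of that choice.

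The level of Non1 in tumors had 2 steps upward with a plateau between them. It was at 1186 to 1251 CPM at 6 days, 1065 to 1281 CPM at 8 days and 1159 to 1372 CPM at 10 days, which overlap. It was then at 1812, 1834, 1664 and 1664 CPM at 12 days and at 2245, 2349, 2222 and 2400 CPM at 14 days, with no overlap between these ages. The mean at 14 days was 2.51-fold that of tumors at 4 days and 4.77-fold that of controls at 5 days. Set against the summed level of the 5 declining genes in the same library, Non1 was at 0.206 to 0.268 in controls, 0.279 to 0.302 in tumors of 4 days, 0.955 to 1.19 at 12 days and 1.59 to 1.77 at 14 days. Non1 thus had fewer CPM than the sum in every library up to 10 days and more in every library of 14 days.

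**Figure D3:**
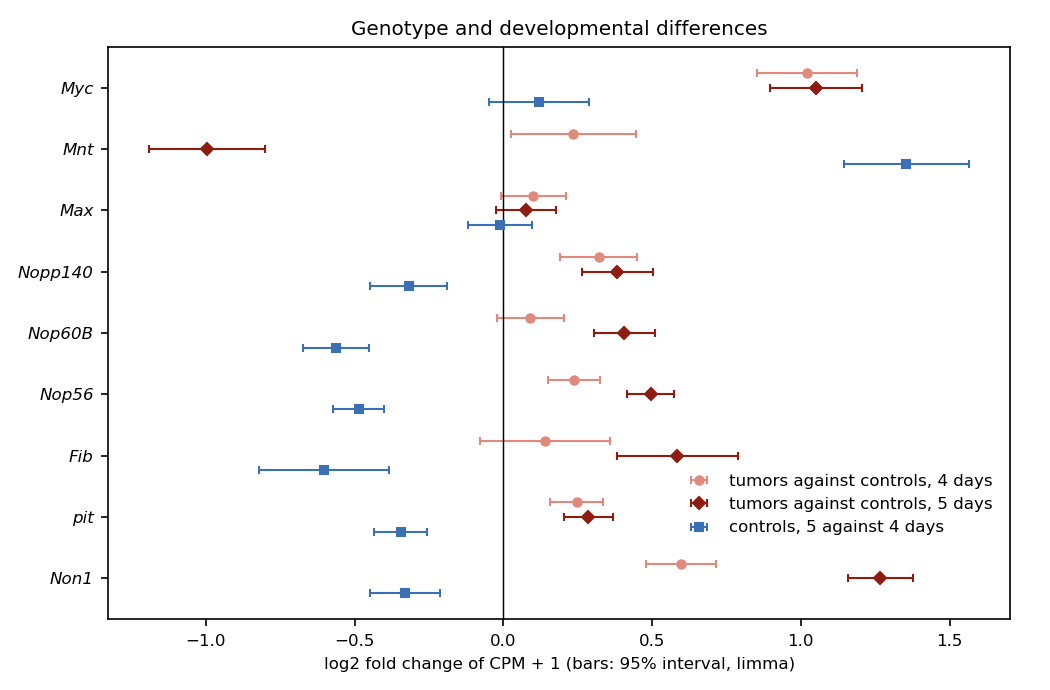
Log2 fold change of CPM + 1 (x axis) for each of the 9 genes (y axis), with 95% intervals from limma, for tumors against controls at 4 days (light red circles) and at 5 days (dark red diamonds), and for controls of 5 against 4 days (blue squares). Mnt lies at 1.35 between the controls and at -0.996 between tumors and controls at 5 days, and the nucleolar genes lie left of 0 between the controls and right of 0 at 5 days.

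By count, 6 of the 9 genes were called higher in tumors at 4 days and none lower, where 61% of the 9637 genes tested were called (32.4% higher and 28.6% lower). Their median log2 difference was 0.24, against 0.035 over all genes. At 5 days 7 were called higher and 1, Mnt, lower, where 71.5% of all genes were called (39% higher and 32.5% lower), and the medians were 0.41 and 0.063. These comparisons share the tumor libraries of 4 and 5 days with the choice of the genes. Between the controls 1 gene was called higher and 6 lower, where 53.8% of all genes were called (26.6% higher and 27.2% lower), and the medians were -0.33 and -0.022. The genes were chosen with earlier results of these data known, so this comparison may not be independent of the choice either.

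The tumor effect at 5 days differed from that at 4 days for 5 of the 9 genes, where 38.7% of all genes were called. Each such difference contains the tumor step from 4 to 5 days and so shares libraries with the choice of the genes. Besides Mnt and Non1 these were Fib with 0.45 (SE 0.15, adjusted p = 0.0159), Nop60B with 0.32 (SE 0.074, adjusted p = 0.00104) and Nop56 with 0.26 (SE 0.057, adjusted p = 6.11e-04). The call for Fib was lost without control replicate 1 of 4 days (0.33, adjusted p = 0.0831). For Nopp140 the difference was 0.063 with an interval from -0.11 to 0.24, and for pit 0.039 with an interval from -0.082 to 0.16. The effect at 5 days and the difference between the controls both use the controls of 5 days, so their opposite signs are not independent of each other.

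Markers of other tissues moved with these comparisons and with tumor age. At 4 days the summed level of 12 larval muscle markers was 948 to 1254 CPM in controls and 2270 to 2494 CPM in tumors, and that of 10 hemocyte markers 368 to 522 and 646 to 1125 CPM. The 20 gut markers summed to 365 to 2147 CPM in tumors of 4 days and to 4.602 to 13.5 CPM at 14 days, where 11 of them were at 0. Over the same ages the muscle markers went from 2270 to 2494 CPM down to 1021 to 1246 CPM. The 7 fat body markers summed to 657 to 4324 CPM in controls of 4 days, and at 5 days to 108 to 1116 CPM in controls and 863 to 2001 CPM in tumors. In the oldest tumors they were at 3.2405 to 107 CPM. Between the controls, hemocyte markers were lower at 5 days (112 to 203 CPM), as were those of larval muscle (703 to 748 CPM), while the epithelial markers were at 2870 to 3411 CPM at 4 days and higher at 5 days. The 4 tracheal markers used summed to 1331 to 1607 CPM in controls and 4859 to 5107 CPM in tumors at 5 days. The part of these markers in the results was not tested, and in bulk RNA fewer cells of a type and less RNA per cell cannot be told apart. An alternative left out control replicate 2 of 4 days and tumor replicate 1 of 10 days, the highest in gut markers in their groups. Tumor libraries of 4, 5 and 6 days with up to 2147, 1193 and 1066 CPM of gut markers stayed in. Under this setting every call on the 9 genes between tumors and controls at 4 and at 5 days and between the controls was kept. Of 92 other genes of these processes, 36 were then higher and 9 lower in tumors at 4 days, where 3127 of 9891 genes were higher and 2567 lower.

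Levels of different genes were compared per kilobase of annotated exon. In controls of 4 days the order was Fib at 802, Non1 at 267, Nop56 at 225, Nop60B at 196, Nopp140 at 143, pit at 62.8, Max at 56.2, Myc at 10.2 and Mnt at 7.43 CPM per kilobase. Only the ranges of pit and Max overlapped among neighbours in this order. The values for Myc, Max and Nop60B may be too low. Reads in their shared exons may not be counted, while the length holds all exon bases. The shared part was largest for Myc, at 61.2%. By this measure Mnt stood above Myc in controls of 5 days, at 19.2 and 11.1 CPM per kilobase. In every tumor group Myc stood above Mnt. The order in the controls of 5 days depends on the length used for Myc and could turn with its unshared bases alone, which was not tested. In tumors the first place passed from Fib to Non1: their ranges overlapped at 10 days, and at 14 days Non1 was at 1012 and Fib at 464 CPM per kilobase.

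Over the 9 group means of log2(CPM + 1), Nopp140, Nop60B, Nop56 and pit were close to each other, with Pearson correlations of 0.979 to 0.994. Fib correlated with these at 0.909 to 0.949 and Max at 0.904 to 0.929. Non1 stood at -0.65 to -0.43 with the 5 genes and at 0.87 with Myc, and Myc with the 5 genes at -0.36 to -0.16. The group means share depth and age, so these values are descriptions. Correlations within groups used the deviations of the 34 libraries from their group means. Among Nopp140, Nop60B, Nop56 and pit they ran from 0.35 (Nopp140 and Nop56) to 0.76 (Nopp140 and Nop60B), the highest of all pairs. Fib had 0.46 with Nop60B, 0.29 with Nopp140, 0.0080 with pit and 0.0022 with Nop56. The lowest of all pairs was Max and Fib, at -0.69.

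Patterns over the 9 group means were compared among 6270 genes of at least 10 CPM on average. Those most like Myc were VhaM8.9, CG43394, c11.1, CG1698 and Sp212, with correlations of 0.990 to 0.991. Sp212 was at 1.28 CPM in controls of 4 days and 0.926 CPM in controls of 5 days, so it passed this filter through the tumors. The sizes differed: VhaM8.9 was at 123 CPM in controls of 5 days and 168 CPM in tumors of 14 days, and CG1698 at 13.2 and 275 CPM. The genes most like Non1 were LTV1, CG11125, CG6689, ash2 and CG4364, with correlations of 0.989 to 0.993. LTV1, for a factor of small subunit assembly known from yeast, was at 96.7 CPM in controls of 5 days and 341 CPM in tumors of 14 days.

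A further 92 genes of the same processes were grouped into 7 lists by their known roles and not by their values. The lists were chosen with earlier results of these data known, so the counts and tests on them may not be independent of that choice. Between the controls 71 of them fell from 4 to 5 days and 6 rose, where 27.2% of all genes fell and 26.6% rose. The median was -0.29, against -0.022 over all genes. All 6 of the box C/D snoRNP list and all 10 helicases fell, and 38 of 41 genes of subunit assembly and ribosomal RNA processing. The lowest was hoip, for a box C/D snoRNP protein, at 264 ± 21.2 CPM (SD, n = 3) and 159 ± 10.1 CPM (n = 4), a difference of -0.72 (SE 0.067, adjusted p = 2.69e-10). The highest was ago, for the F-box protein Archipelago, which targets Myc protein for degradation, at 210 ± 18.7 and 370 ± 29.9 CPM, a difference of 0.81 (SE 0.069, adjusted p = 4.54e-11).

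At 5 days 66 of the 92 genes were higher in tumors and 12 lower, where 39% of all genes were higher and 32.5% lower. The median was 0.25, against 0.063 over all genes. The lists outside the Myc network held 63 of the higher genes and 1 lower gene, while of 17 other genes of the Myc network 3 were higher and 11 lower. The highest was bigmax, for the Max-like partner of Mondo, at 11.02 ± 0.229 CPM in controls and 19.8 ± 1.64 CPM in tumors, a difference of 0.79 (SE 0.071, adjusted p = 3.73e-11). The lowest was brat, for a translational repressor that limits Myc in neural progenitors, at 549 ± 9.19 and 238 ± 9.85 CPM, a difference of -1.21 (SE 0.067, adjusted p = 3.97e-16). The gene ago was also lower there, by -1.08 (SE 0.064, adjusted p = 2.15e-15), at 173 ± 4.73 CPM in tumors.

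At 4 days 45 of the 92 genes were higher in tumors and 10 lower, where 32.4% of all genes were higher and 28.6% lower. The median was 0.14, against 0.035 over all genes. This count rests on the scaling: with libraries scaled by size alone 19 were higher and 16 lower, and the higher genes among all calls went from 53.1% to 41.0%. The lowest was again brat (-0.86, SE 0.072, adjusted p = 1.42e-11) and the highest CG4364, the Pescadillo homolog, at 343 ± 4.37 CPM in controls and 467 ± 7.76 CPM in tumors (0.45, SE 0.064, adjusted p = 5.52e-07). The tumor effect differed between the ages for 30 of the 92 genes, 26 upward and 4 downward. That is a smaller share than the 38.7% of all genes called (19.4% upward and 19.2% downward). The values ran from ago at -0.82 (SE 0.095, adjusted p = 3.75e-08) to bigmax at 0.51 (SE 0.10, adjusted p = 2.2e-04).

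With tumor age 75 of the 92 genes fell and 7 rose, where 77.2% of all 9408 genes were called (40.8% falling and 36.4% rising). The median slope was -0.071 log2 units per day, against -0.0040 over all genes. All genes of the box C/D, box H/ACA and RNA polymerase I lists fell. The steepest falls in these lists were those of nop5 (-0.14, adjusted p = 3.17e-18), CG4038, the Gar1 homolog (-0.13, adjusted p = 1.44e-17), and RpI135, a large polymerase subunit (-0.13, adjusted p = 3.25e-15). The shallowest were CG4866 (-0.019, adjusted p = 0.0213), CG10055 (-0.031, adjusted p = 3.1e-04) and TAF1B (-0.024, adjusted p = 7.2e-04).

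Of the helicases CG5589 fell most (-0.12, adjusted p = 1.03e-16) and Dbp45A had -0.0056, which did not pass the test (adjusted p = 0.348). In the list named nucleolar GTPases, which leaves out Non1, Tsr1 fell most (-0.092, adjusted p = 9.94e-16), and Ns4 had 0.0023, with an interval from -0.0070 to 0.012 (adjusted p = 0.651). None of the 5 genes of this list was called as rising, where 36.4% of all 9408 genes rose. A list this small cannot show that the rise of Non1 is unusual among such genes. In subunit assembly mod, for the nucleolar protein Modulo, had the steepest fall, with 784 ± 38.1 CPM in the youngest tumors and 263 ± 12.8 CPM in the oldest (-0.16, adjusted p = 1.03e-16). CG4364 alone of the 41 genes of this list rose, from 467 ± 7.76 to 712 ± 63.9 CPM (0.060, adjusted p = 7.71e-10).

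Of the 17 other genes of the Myc network 6 rose, 7 fell and 4 were not called. This split was near that of all 9408 genes, where 36.4% rose and 40.8% fell. The chromatin ATPase gene pont, whose protein binds Myc, fell from 177 ± 0.801 to 71.96 ± 1.98 CPM (-0.13, adjusted p = 1.12e-18). The gene brat rose from 222 ± 11.5 to 463 ± 32.3 CPM (0.11, adjusted p = 1.73e-13), and at 14 days all its tumor libraries (423 to 498 CPM) were still below the controls of 5 days (536 to 556 CPM). The gene bigmax rose from 18.5 ± 1.12 to 33.6 ± 3.20 CPM (0.085, adjusted p = 2.48e-12).

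**Figure D4:**
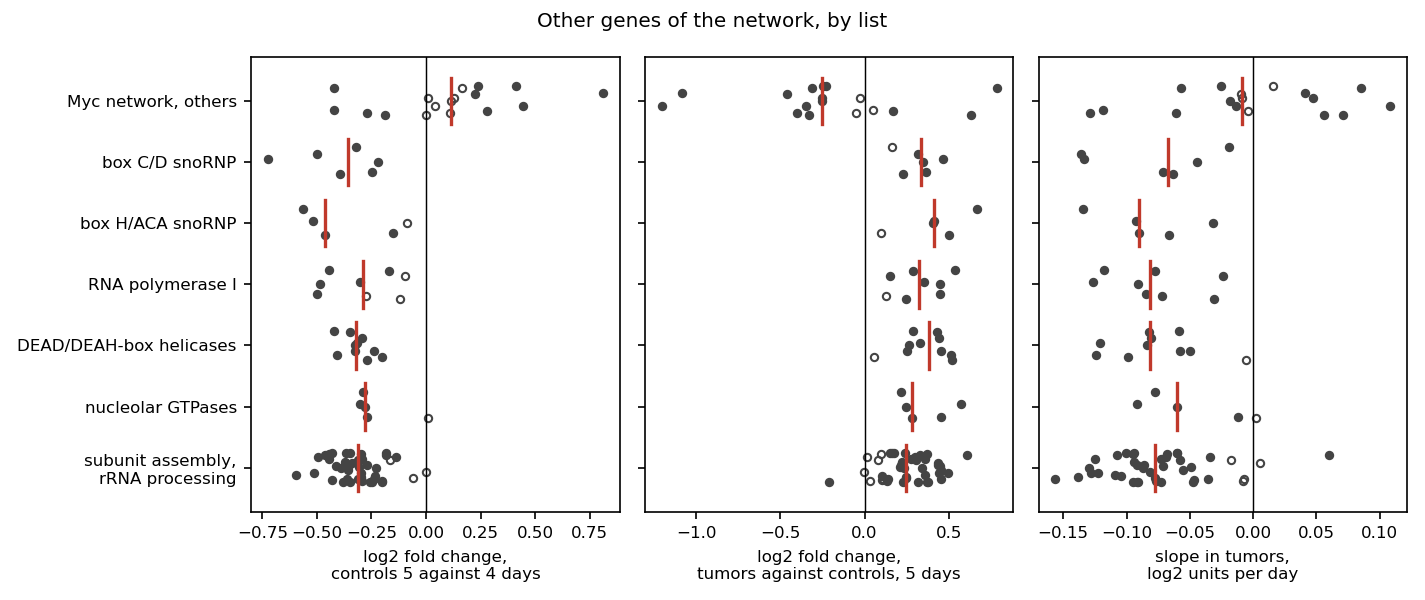
Each point is 1 of 92 other network genes, placed by list (y axis) and by its log2 fold change between controls of 5 and 4 days (left), its log2 fold change between tumors and controls at 5 days (middle) or its slope on tumor age in log2 units per day (right). Filled points passed the test, open points did not, and red bars are list medians. Outside the Myc network list the medians lie below 0 between controls, above 0 at 5 days and below 0 for the slope.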

How the data were processed

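Bulk RNA-seq of 34 wing disc libraries in 9 groups was analysed. Per the study's methods, the authors aligned reads to BDGP6 by STAR, obtained gene counts from featureCounts at default settings and turned the counts into CPM, scaled to a common library size, with edgeR. The deposited CPM values include a scaling of each library. Their sums over all genes lay between 919588.8 and 1054125 a library, and the 9 deposited columns with the highest sums were recorded as a signal in the same steps and analysed as CPM. Dividing by the step of each library gave whole reads for 100% of values (tolerance 0.01).

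Differences were tested with limma 3.58.1 (R 4.3.3, empirical Bayes with intensity trend) on log2(CPM + 1), which understates changes of low genes, after edgeR 4.0.16 filterByExpr on the recovered reads (9637 genes over all libraries, 9408 over tumors). Group means were fitted over all 34 libraries and slopes on age over 27 tumor libraries, with Benjamini-Hochberg adjustment over all genes and a threshold of 0.05. The script was tested on simulated data. As a count test, edgeR's quasi-likelihood test on the recovered reads called 5856 genes at 4 days and 6966 at 5 days.

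The 9 genes, the other lists and the marker lists were chosen with earlier results of these data known. Named beside the 9 genes were, by a fixed rule, the genes with the largest and smallest slope in each list, those with the largest and smallest difference in each comparison over all lists, and the 5 genes most like Myc and Non1. The value of ago at 5 days was added after it was seen. Of 95 genes asked for in the lists 92 matched, and the other 3, with the markers btl and para, were not used here. Gene positions came from an Ensembl annotation of BDGP6 in which 17490 of 17641 symbols (99.1%) were found, and the authors' release may be another.

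Alternatives were the pseudocount, the filter, other scalings, edgeR and DESeq2 1.42.0, the replicate number as a block, fewer groups and leaving out libraries. Leaving out 2 libraries, each the highest in gut markers in its group, was chosen after seeing the data. Replicate pairs differed by 5.79 to 46.9 times the counting noise (median 14.6), so no library was counted as a copy of another.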

Additional observations from a re-analysis of the deposited data

Results flagged for a closer look

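In 4 of 63 sets of 4 libraries, 1 library stood apart from the other 3 by Dixon's 95% criterion, which chance gives in about 1 of 20 sets. Myc was at 189.85 CPM in tumor replicate 3 of 5 days, against 216 to 221 CPM in the other 3 libraries. Mnt was at 46.5 CPM in tumor replicate 2 of 14 days, against 58.6 to 60.9 CPM. Max was at 68.9 CPM in tumor replicate 2 of 12 days, against 62.4 to 63.1 CPM. Nop56 was at 261 CPM in control replicate 3 of 5 days, against 286 to 288 CPM.

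The tumor effect differed between 5 and 4 days, by limma's test of the difference itself, for 5 genes. The difference was 0.45 for Fib, 0.32 for Nop60B, 0.26 for Nop56 and 0.67 for Non1, where the effect was higher at 5 days, and -1.23 for Mnt. Each contains the step of the tumors from 4 to 5 days, whose libraries the choice of the genes also used.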

How the results depend on the processing

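Of the counts recomputed under the alternatives, 135 stayed within 1.5 times the main value. The other 3 came from scaling by library size alone: 19 of the 92 other network genes were called higher in tumors of 4 days and 16 lower, and 2, against 4, had a lower effect at 5 days. That scaling lowered the median of all genes at 4 days by 0.093, and it gave -0.016 for Max and -0.027 for Nop60B at 4 days, -0.010 for Max at 5 days and 0.0055 for Max in the difference of the effects. edgeR turned Max between controls to 0.012 and Myc in the difference of the effects to -0.0018. Leaving out the 2 libraries highest in gut markers in their groups turned Max in the difference of the effects to 0.023. All these values were near 0, and the cause was not tested. The call for Mnt at 4 days was lost with no filter (adjusted p = 0.0739), library size alone (0.309), edgeR (0.0561), DESeq2 (0.0542), the groups compared alone (0.145) and the replicate block (0.0671), and that for Fib in the difference of the effects with the groups compared alone (0.0533).

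The replicate numbers are shared between groups, but same-numbered libraries of the compared groups did not deviate together (mean correlation -0.036 over 10 pairs, from -0.20 to 0.25). With the replicate block 5824 genes were called at 4 days, 6859 at 5 days, 5054 between controls, 3641 for the difference of the effects and 7173 for the slope, and among the 9 genes it changed no other call than that of Mnt at 4 days.

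Leaving out 1 library at a time gave 5420 to 5900 called genes at 4 days, 6562 to 6644 at 5 days, 4728 to 5065 between controls, 3402 to 3686 for the difference of the effects and 7076 to 7400 for the slope. Of the single genes, Mnt ran from 0.073 to 0.33 and Max from 0.053 to 0.20 at 4 days, with Max past the test without control replicate 3 or tumor replicate 4. Max ran from -0.059 to 0.084 between controls and from -0.12 to 0.023 in the difference of the effects, where Fib ran from 0.33 to 0.58. No control exists after 5 days.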
